A study of Homo sapiens with 14 samples.

Results

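The mitochondrial ribosomal protein genes are the 77 genes of the count table whose symbols start with MRPL or MRPS followed by a number and, for some, a letter from A to C. They are 77 of 24729 counted genes, or 0.311%, and comprise 48 MRPL genes, named for the large ribosomal subunit, and 29 MRPS genes, named for the small subunit. The members were chosen by name and not by any measured value. RNA was sequenced from K562, an erythroleukemic line from a human chronic myeloid leukemia, cultured in IMDM with fetal bovine serum. In the sgHS2 group (n = 3) the cells stably carried FB-dCas9-BirA, that is, catalytically dead Cas9 with a Flag and biotin-acceptor tag and the biotin ligase BirA, with an sgRNA to HS2, an enhancer in the control region of the β-globin genes. The sgHBG group (n = 3) had the same proteins with an sgRNA named for the fetal globin (HBG) genes, and the sgHS1-5 group (n = 3) with sgRNAs named for the hypersensitive sites of the control region. The sgGal4 group (n = 3) carried the same proteins with a non-targeting sgRNA, so dCas9 and BirA are shared by these 4 groups. The WT group (n = 2) was unmodified K562. The labels do not say whether a group is 1 clone or a mixed population, so the sgRNA and the separate derivation of each population cannot be told apart.

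Mitochondrial ribosomes sit in the mitochondrial matrix and translate the few messages of the mitochondrial genome, all of which encode core subunits of the respiratory chain and of ATP synthase. Their RNAs come from the mitochondrial genome, while every one of their proteins is encoded in the nucleus, made in the cytosol and imported. Many of these proteins have bacterial relatives that build the catalytic centre, the decoding site and the stalks, and others are found only in mitochondria, where they make up for shortened ribosomal RNA. A symbol does not always give the place of the protein: the products of MRPS18A and MRPS30 lie in the large subunit, and the product of MRPS36 belongs to the oxoglutarate dehydrogenase complex.

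The 14 libraries held 5694448 to 11335831 counted reads. All 8 erythroid and megakaryocytic markers had reads in every library of every group. The 8 markers of other cell types (blood lineages, epithelium and fibroblasts) summed to 255 to 288.1 CPM (counts scaled to a common library size with TMM factors) in sgHS2, 512.9 to 534.1 CPM in sgHBG, 520.7 to 2362 CPM in sgHS1-5, 444.1 to 539.5 CPM in sgGal4 and 267.9 to 281.6 CPM in WT. MS4A1, a B-cell marker, was at 0 in every group but sgHS1-5. MPO reached 1415 CPM in sgHS1-5, against at most 0.284 CPM in sgGal4 and 0.192 CPM in WT. Libraries sgGal4 1 and sgHS2 2 favoured short transcripts: relative to the other libraries of the group, the fifth of all tested genes with the shortest transcripts had a median log2 deviation of 0.69 in sgGal4 1 and 0.28 in sgHS2 2, and the fifth with the longest had -0.60 in sgGal4 1 and -0.25 in sgHS2 2. They are therefore given apart, and every comparison is given with all 14 libraries and without these 2. Whether replicates came from separate cultures is not stated in the labels, so the p-values measure the spread between libraries, which may be technical. In RNA from bulk cells, fewer expressing cells and less RNA per cell cannot be told apart.

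The members were spread over 21 chromosomes in the GENCODE 29 annotation. Of the 77, 17 had a protein-coding neighbour that starts within 1000 bases on the opposite strand, among them MRPS11 and MRPL46, which are neighbours of each other. MRPL36 and MRPL47 were paired in this way with NDUFS6 and NDUFB5, which encode subunits of respiratory complex I. At least 1 exon base was shared with another counted gene in 21 members, and the library kit does not mark strand, so reads in shared bases cannot be assigned with certainty. The share was 77.0% of exon bases for MRPS24, with the readthrough gene URGCP-MRPS24, and 56.9% for MRPS18A, with RSPH9. Promoter sequences, taken from RefSeq on GRCh38.p14 and spanning 250 bases before to 50 bases after the annotated start, were matched for 68 members. The binding cores searched on both strands were those of factors known to act on nuclear genes for mitochondrial proteins. The ETS core bound by GABP (CCGGAAG) was in 42.6% of member promoters, or 29 of 68, against 21.0% of 10523 promoters of tested genes. The core of YY1 (AAGATGGCG) was in 19.1%, or 13, against 4.4%, and the core of NRF1 (GCGCATGC) in 8.8%, or 6, against 6.2%. Cores of different factors can share end letters, such as the AAG that closes the ETS core and opens the YY1 core. Of the 68, 29 member promoters held none of them. A match is a description of letters, not a bound site or a cause. The promoters below belong to members that the comparisons turn on and that hold a core, and capitals mark the core in either orientation.
MRPL16, chr11:59810729-59811028, minus strand: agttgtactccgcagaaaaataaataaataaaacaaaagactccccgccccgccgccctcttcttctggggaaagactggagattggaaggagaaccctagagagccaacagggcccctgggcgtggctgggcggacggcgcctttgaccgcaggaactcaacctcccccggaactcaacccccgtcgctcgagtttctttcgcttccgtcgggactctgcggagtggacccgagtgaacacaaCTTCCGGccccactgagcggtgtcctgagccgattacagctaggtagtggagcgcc
MRPL27, chr17:50373135-50373434, minus strand: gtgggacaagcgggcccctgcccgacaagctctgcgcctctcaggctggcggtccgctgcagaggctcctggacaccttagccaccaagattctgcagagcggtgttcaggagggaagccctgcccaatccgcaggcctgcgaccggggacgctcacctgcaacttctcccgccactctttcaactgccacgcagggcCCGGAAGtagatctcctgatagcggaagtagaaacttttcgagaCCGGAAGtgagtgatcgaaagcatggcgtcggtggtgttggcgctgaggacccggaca
MRPL48, chr11:73787624-73787923, plus strand: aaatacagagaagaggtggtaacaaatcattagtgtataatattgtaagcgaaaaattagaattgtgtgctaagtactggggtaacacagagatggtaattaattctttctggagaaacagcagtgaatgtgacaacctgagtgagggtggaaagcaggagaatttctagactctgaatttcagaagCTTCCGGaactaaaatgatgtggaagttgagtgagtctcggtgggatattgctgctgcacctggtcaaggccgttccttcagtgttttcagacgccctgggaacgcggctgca
MRPL50, chr9:101398569-101398868, minus strand: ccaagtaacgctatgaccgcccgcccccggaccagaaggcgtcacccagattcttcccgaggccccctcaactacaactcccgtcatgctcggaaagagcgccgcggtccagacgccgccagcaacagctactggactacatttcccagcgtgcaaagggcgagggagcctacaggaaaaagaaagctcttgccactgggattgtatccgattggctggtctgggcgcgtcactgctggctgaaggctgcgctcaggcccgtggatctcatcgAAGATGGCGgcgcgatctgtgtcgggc
MRPL16, MRPL27 and MRPL48 hold the ETS core, at 2 places in MRPL27, and MRPL50 holds the YY1 core. No match to the 3 cores was found in the promoters of MRPS25 and MRPL1, the members with the largest rise in sgHS1-5 described further on.

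Compared per length, in the authors' RPKM (reads scaled to transcript length and library size), the member levels spanned 20.9-fold, from a mean over the 14 libraries of 6.77 RPKM for MRPL1 to 141.6 RPKM for MRPL41, with a median of 50.1 RPKM. The median was 53.6 RPKM for the 48 MRPL genes and 46.1 RPKM for the 29 MRPS genes. The highest were MRPL41 (141.6 RPKM), MRPL51 (139 RPKM), MRPL40 (137 RPKM), MRPL21 (125.5 RPKM), MRPS24 (116 RPKM) and MRPS34 (112 RPKM). The lowest were MRPL1 (6.77 RPKM), MRPL19 (9.19 RPKM), MRPL57 (9.69 RPKM), MRPL22 (10.6 RPKM), MRPS31 (13.0 RPKM) and MRPS11 (13.2 RPKM). Neighbours in this order were closer than their spread over libraries: MRPL41 ranged from 102.9 to 382 RPKM, MRPL51 from 91.9 to 369 RPKM and MRPL40 from 92.2 to 208 RPKM. The means include sgGal4 1 and sgHS2 2. The order and the span also depend on the lengths behind the RPKM. The length implied by the ratio of counts to RPKM was 387.9 bases for MRPL41 and 737.6 bases for MRPL40. The shortest GENCODE 29 transcripts of these genes have 1262 and 1387 bases, and with such lengths both levels would be lower. The order was much the same in every group. The Spearman correlation across the 77 members between a group's mean and the WT mean was 0.926 for sgHS2, 0.922 for sgHBG, 0.856 for sgHS1-5 and 0.897 for sgGal4, as a description of genes that share transcript lengths and mapping. The 2 tables disagreed on MRPS24, which had 11 reads over all 14 libraries and 0 to 3 in each, yet 73.7 to 264.5 RPKM. The readthrough gene that overlaps it had 0 reads. Whether the overlap led the count table to drop these reads was not tested, and MRPS24 was the member left out of the count tests, so 76 of 77 members were tested.

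**Figure D1:**
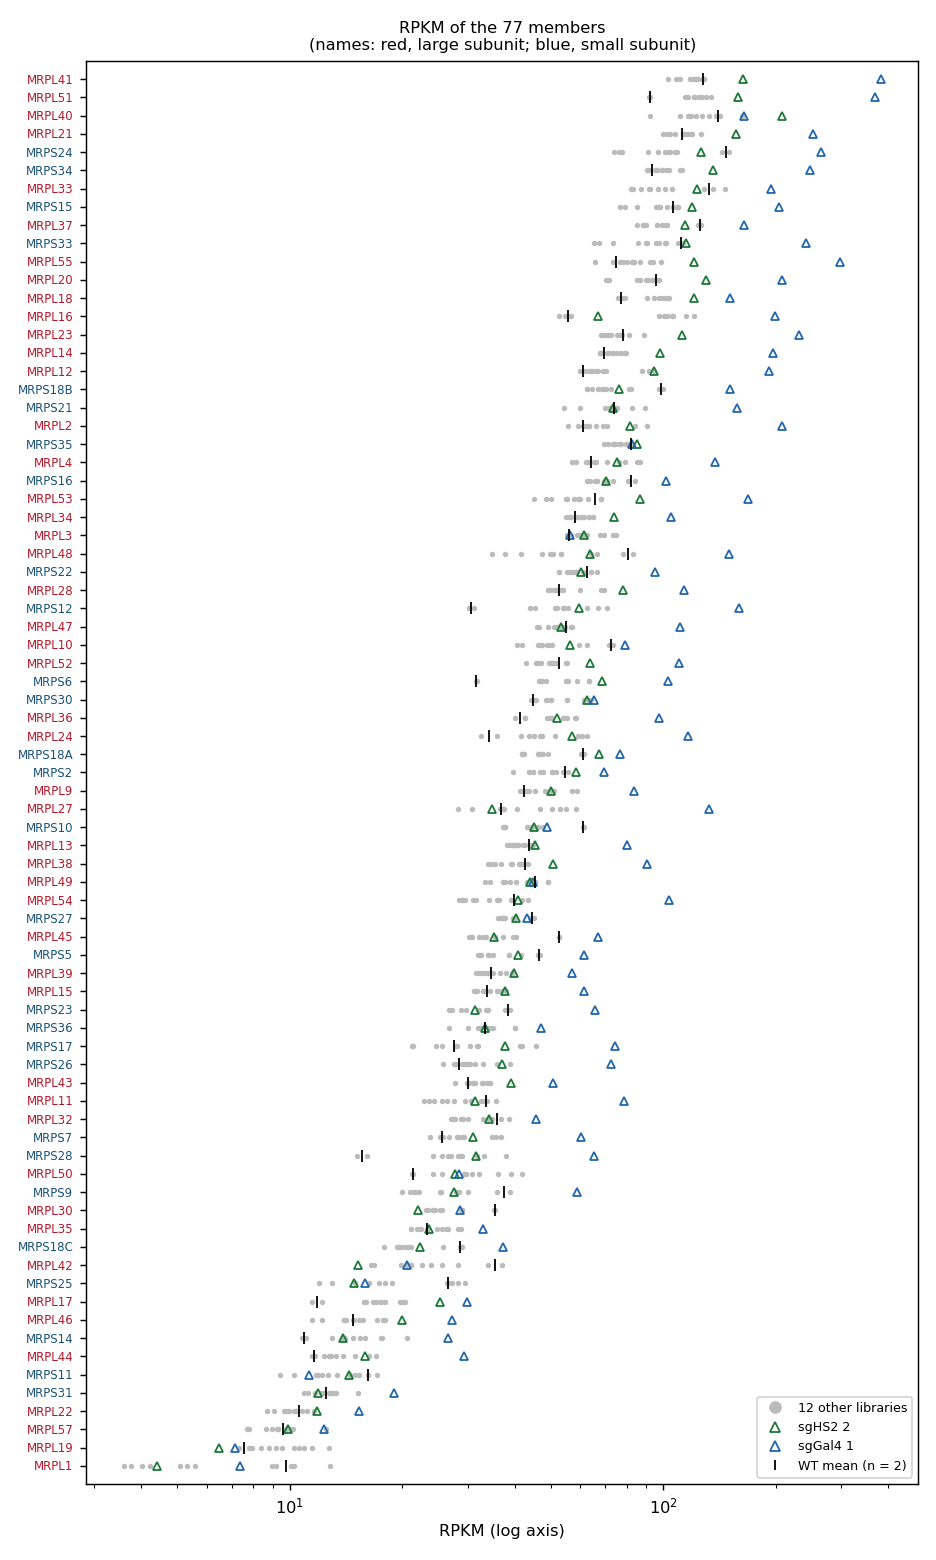
RPKM (log axis) of each of the 77 members, ordered by mean, with 1 point per library; open triangles are sgHS2 2 and sgGal4 1, black ticks the mean of the 2 WT libraries. The mean levels run from 6.77 RPKM for MRPL1 to 141.6 RPKM for MRPL41, and sgGal4 1 lies to the right of the other libraries for most members.

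Most members encode short transcripts. The transcript length implied by the ratio of the 2 tables had a median of 1168 bases over 76 members (265.3 to 5472 bases), against 2955 bases over 13572 tested genes. The members summed to 4067 and 4101 CPM in sgHS2 1 and 3, with 4924 CPM in sgHS2 2, and to 4303, 4165 and 4132 CPM in the 3 sgHBG libraries. The sum was 4541, 4321 and 4318 CPM in the 3 sgHS1-5 libraries, 4475 and 4399.8 CPM in sgGal4 2 and 3, 7782 CPM in sgGal4 1, and 4481 and 4514 CPM in the 2 WT libraries. Library sgGal4 1 stood above all others, with 71 of 76 members above its peers and a median log2 deviation of 0.88. The members took 0.4288% and 0.4231% of reads in sgGal4 2 and 3 and 0.5775% in sgGal4 1. The TMM factors were 0.959, 0.962 and 0.743 in the same order, so scaling widened the gap in CPM for sgGal4 1. Its 25 members with the shortest transcripts deviated by a median of 1.23 and its 25 with the longest by 0.54. The fifth of all genes with the longest transcripts deviated by -0.60, but that set differs in length from the 25 longest members. Among members with an implied length, only MRPL19, MRPS25, MRPL30 and MRPS27 exceeded the median of 2955 bases over all tested genes. In sgHS2 2, 69 of 76 members were above their peers, with a median of 0.29, of 0.37 for the 25 shortest and of 0.18 for the 25 longest. Outside these 2 libraries the summed level lay within 4067 to 4541 CPM. The group means of the sum without these 2 libraries were 4084 ± 24.0 CPM in sgHS2 (SD, n = 2), 4199.8 ± 90.8 in sgHBG (n = 3), 4393 ± 128 in sgHS1-5 (n = 3), 4437 ± 52.9 in sgGal4 (n = 2) and 4498 ± 23.6 in WT (n = 2).

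**Figure D2:**
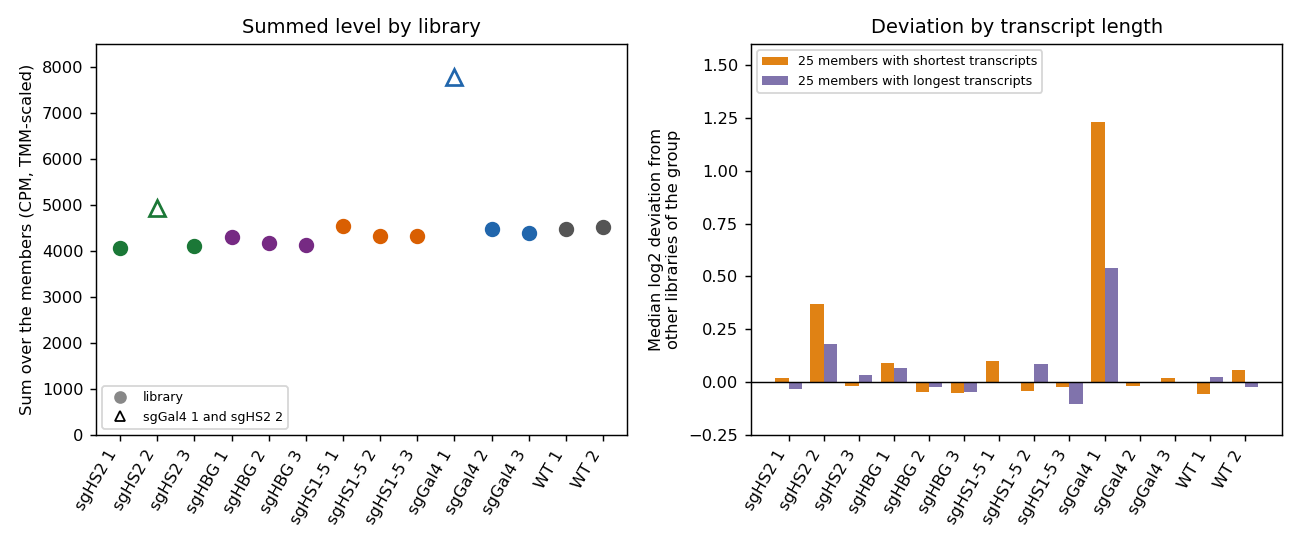
Left, the summed level of the 77 members in each library (TMM-scaled CPM; open triangles are sgHS2 2 and sgGal4 1). Right, the median log2 deviation of the 25 shortest and the 25 longest members from the other libraries of the group, with sgGal4 1 and sgHS2 2 not used as peers; sgGal4 1 reaches 1.23 for the short members and 0.54 for the long ones.

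The comparison of sgHS2 with sgGal4 asks what changes when dCas9 is brought to the HS2 enhancer. More members fell than rose. Without sgGal4 1 and sgHS2 2, 27 of 76 tested members were lower in sgHS2 and 7 were higher, with a median log2 difference of -0.12, where a call is an adjusted p under 0.05 over all genes tested. The 27 lower members are 35.5% of those tested. Of all 14386 genes in that fit, 23.0% were lower and 19.0% higher, with a median of -0.011. With all 14 libraries, 13 members were lower and 0 higher by edgeR (median -0.36), against 15.6% and 14.5% of 14406 genes (median -0.016). At an unadjusted p under 0.05, 2 members were higher in that fit, and DESeq2 called 0 higher.

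MRPL16, a protein next to the catalytic centre of the large subunit, had 55.8 and 60.8 CPM in sgHS2 1 and 3 and 72.3 CPM in sgHS2 2, against 113 and 109.7 CPM in sgGal4 2 and 3 and 215 CPM in sgGal4 1. All 3 sgHS2 libraries lay below all 3 sgGal4 libraries. MRPL16 was 1.94-fold lower without sgGal4 1 and sgHS2 2 (log2 difference -0.96, SE 0.087, adjusted p = 7.22e-06) and 2.32-fold lower with all 14 libraries (log2 difference -1.21, SE 0.22, adjusted p = 0.00114). MRPL27, whose bacterial relative reaches into the catalytic centre, had 21.3 and 18.0 CPM in sgHS2 1 and 3 and 20.3 CPM in sgHS2 2, against 32.1 and 33.1 CPM in sgGal4 2 and 3 and 81.7 CPM in sgGal4 1. The groups did not overlap. MRPL27 was 1.68-fold lower without sgGal4 1 and sgHS2 2 (log2 difference -0.75, SE 0.14, adjusted p = 0.00142) and 2.44-fold lower with all 14 libraries (log2 difference -1.29, SE 0.29, adjusted p = 0.00556). Both calls held when any 1 library of the 2 groups was left out. Against WT, MRPL27 was higher in sgGal4 (log2 difference 0.53, adjusted p = 0.0068 without sgGal4 1 and sgHS2 2). In sgHS2 it was not called against WT in either fit (log2 difference -0.21, adjusted p = 0.246 without these 2 libraries).

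Among the other proteins of the large-subunit core, MRPL2 was 1.41-fold lower (log2 difference -0.50, SE 0.11, adjusted p = 0.00416 without sgGal4 1 and sgHS2 2, and -0.84, SE 0.27, adjusted p = 0.0304 with all 14 libraries). MRPL48, a mitochondria-specific protein of the central protuberance, was 1.37-fold lower (log2 difference -0.45, SE 0.081, adjusted p = 0.000906 without sgGal4 1 and sgHS2 2, and -0.80, SE 0.26, adjusted p = 0.0368 with all 14 libraries). The small-subunit genes MRPS9 and MRPS23 were 1.32-fold and 1.27-fold lower, with log2 differences of -0.40 (adjusted p = 0.00174) and -0.34 (adjusted p = 0.00638) in the fit without the 2 libraries. The members that were higher there were MRPL40, MRPL46, MRPL20, MRPS6, MRPS25, MRPL17 and MRPS35, with log2 differences from 0.24 for MRPS35 to 0.41 for MRPL40, and none of these 7 was called with all 14 libraries. The calls of MRPL2, MRPL48 and MRPS9 with 14 libraries were lost without sgHS2 1, sgHS2 3 or sgGal4 1, and that of MRPS23 also without sgHS2 2. In the fit without the 2 libraries 17 of 48 MRPL genes were lower and 4 higher, and 10 of 28 MRPS genes were lower and 3 higher. The count of lower members with 14 libraries depended on single libraries: it was 3 without sgHS2 1, 4 without sgHS2 3, 6 without sgGal4 1, 25 without sgGal4 2 and 27 without sgGal4 3, and 8 members were higher without sgGal4 1. Such counts with 1 library left out, here and in the later comparisons, stand without the share of all genes called in the same fit. They do not tell a change in members from a change in calls over all genes.

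For sgHBG against sgGal4, more members were again lower than higher. Without sgGal4 1 and sgHS2 2, 20 of 76 members were lower and 6 higher (median log2 difference -0.078), against 19.6% and 17.8% of all genes. With all 14 libraries, 10 were lower and 2 higher (median -0.42), against 12.6% and 12.1%. MRPL2 had 67.3, 66.5 and 72.8 CPM in the 3 sgHBG libraries, against 102 and 95.6 CPM in sgGal4 2 and 3 and 224 CPM in sgGal4 1. Every sgHBG library lay below every sgGal4 library. MRPL2 was 1.44-fold lower without sgGal4 1 and sgHS2 2 (log2 difference -0.53, SE 0.10, adjusted p = 0.00195) and 2.03-fold lower with all 14 libraries (log2 difference -1.02, SE 0.27, adjusted p = 0.0154). Without these 2 libraries MRPL2 averaged 71.0 CPM in sgHS2, 68.9 in sgHBG, 70.5 in sgHS1-5, 98.8 in sgGal4 and 66.9 in WT. It was above WT in sgGal4 (log2 difference 0.57, adjusted p = 0.00116 without the 2 libraries, and 1.07, adjusted p = 0.0137 with all 14). In neither fit was it called against WT in a targeting group. The comparisons against sgGal4 share its libraries, so a high level in sgGal4 enters all of them. MRPS17, a small-subunit protein with a bacterial relative, was 1.42-fold lower (log2 difference -0.51, SE 0.12, adjusted p = 0.00722 without sgGal4 1 and sgHS2 2, and -0.95, SE 0.28, adjusted p = 0.0251 with all 14 libraries). MRPS9 was 1.36-fold lower and MRPL27 1.34-fold lower in the fit without the 2 libraries (adjusted p = 0.00064 and 0.0214), followed by MRPL48 (log2 difference -0.32, adjusted p = 0.00503) and MRPL21 (log2 difference -0.26, adjusted p = 0.00636). MRPL16, which in sgHS2 had the largest fall without the 2 libraries and the next largest after MRPL27 with all 14, had 116, 117 and 104 CPM in the 3 sgHBG libraries, and its difference from sgGal4 was 0.0011 on the log2 scale without the 2 libraries (adjusted p = 0.997).

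The members higher in sgHBG by both fits were MRPS25 and MRPS11. MRPS25, a mitochondria-specific small-subunit protein, had 84.6, 87.7 and 86.5 CPM in the 3 sgHBG libraries, against 62.8 and 57.1 CPM in sgGal4 2 and 3 and 82.6 CPM in sgGal4 1. The groups did not overlap. MRPS25 was 1.43-fold higher without sgGal4 1 and sgHS2 2 (log2 difference 0.52, SE 0.062, adjusted p = 8.12e-05) and 1.28-fold higher with all 14 libraries (log2 difference 0.36, SE 0.12, adjusted p = 0.045). MRPS11, a small-subunit platform protein, was 1.36-fold higher (log2 difference 0.44, SE 0.14, adjusted p = 0.0315 without sgGal4 1 and sgHS2 2, and 0.45, SE 0.15, adjusted p = 0.0437 with all 14 libraries). MRPL46, its head-to-head neighbour, was 1.30-fold higher without the 2 libraries (adjusted p = 0.0144) and was not called with all 14 (log2 difference -0.16). Starting from 14 libraries, the count of lower members was 0 without sgHBG 2, 1 without sgHBG 3, 2 without sgHBG 1, 6 without sgGal4 1, 26 without sgGal4 2 and 32 without sgGal4 3. Beside that 0, the full fit had 35 members lower at an unadjusted p under 0.05 and DESeq2 called 21. The 2 higher members became 4 without sgGal4 1 and 0 without any 1 of the other 5 libraries, where the full fit had 2 at an unadjusted p under 0.05 and DESeq2 called 2. So no call of this comparison with 14 libraries held when each of the 6 was left out in turn.

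Of the 3 comparisons against sgGal4, that of sgHS1-5 gave the largest single differences among the members. Without sgGal4 1 and sgHS2 2, 20 of 76 members were higher and 17 lower, with a median log2 difference of 0.017, against 25.7% and 27.0% of all genes (median 0.024). In the fit to all 14 libraries, 4 were higher and 15 lower (median -0.31), against 20.3% and 20.2%. The median thus changed sign between the fits. MRPL1, whose bacterial relative forms the mobile stalk where tRNA leaves the ribosome, had 13.6, 16.9 and 11.6 CPM in the 3 sgHS1-5 libraries, against 5.42 and 4.31 CPM in sgGal4 2 and 3 and 9.93 CPM in sgGal4 1. All 3 sgHS1-5 libraries lay above all 3 sgGal4 libraries. MRPL1 was 2.85-fold higher without sgGal4 1 and sgHS2 2 (log2 difference 1.51, SE 0.18, adjusted p = 4.05e-05) and 2.19-fold higher with all 14 libraries (log2 difference 1.13, SE 0.25, adjusted p = 0.00377). MRPS25 had 133, 126 and 132 CPM in the 3 sgHS1-5 libraries, against 62.8 and 57.1 CPM in sgGal4 2 and 3 and 82.6 CPM in sgGal4 1. Again the groups did not overlap. MRPS25 was 2.15-fold higher without sgGal4 1 and sgHS2 2 (log2 difference 1.10, SE 0.063, adjusted p = 1.29e-07) and 1.94-fold higher with all 14 libraries (log2 difference 0.96, SE 0.12, adjusted p = 8.02e-05). The WT libraries had 122 and 123 CPM of MRPS25 and 9.91 and 9.57 CPM of MRPL1, so for both genes sgGal4 2 and 3 lay below WT as well. MRPL1 was as low in sgHS2, with 5.33 and 5.62 CPM in sgHS2 1 and 3 and 5.36 CPM in sgHS2 2, and averaged 6.63 ± 0.469 CPM in sgHBG (SD, n = 3). MRPS25 had 73.8 and 81.2 CPM in sgHS2 1 and 3 and 74.8 CPM in sgHS2 2. Both genes thus lay below WT in sgHS2 and sgHBG as well as in sgGal4 2 and 3.

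MRPS11 and MRPL50, a mitochondria-specific large-subunit protein, were the other members called higher by both fits. MRPS11 was 1.41-fold higher (log2 difference 0.50, SE 0.15, adjusted p = 0.0141 without sgGal4 1 and sgHS2 2, and 0.52, SE 0.15, adjusted p = 0.0163 with all 14 libraries). MRPL50 was 1.21-fold higher (log2 difference 0.28, SE 0.086, adjusted p = 0.0182 without sgGal4 1 and sgHS2 2, and 0.31, SE 0.095, adjusted p = 0.0221 with all 14 libraries). MRPL46 was 1.58-fold higher without the 2 libraries (adjusted p = 0.000365) and was not called with all 14 (log2 difference 0.13).

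The lowest member in sgHS1-5 was MRPL48, with 40.8, 37.6 and 33.3 CPM in the 3 sgHS1-5 libraries, against 65.6 and 64.2 CPM in sgGal4 2 and 3 and 149.8 CPM in sgGal4 1. Every sgHS1-5 library lay below every sgGal4 library and below both WT libraries, which had 79.5 and 73.7 CPM. MRPL48 was 1.77-fold lower without sgGal4 1 and sgHS2 2 (log2 difference -0.83, SE 0.077, adjusted p = 5.5e-06) and 2.50-fold lower with all 14 libraries (log2 difference -1.32, SE 0.27, adjusted p = 0.00239). MRPL10, which with MRPL12 forms the stalk that recruits translation factors, was 1.55-fold lower (log2 difference -0.64, SE 0.072, adjusted p = 2.54e-05 without sgGal4 1 and sgHS2 2, and -0.75, SE 0.12, adjusted p = 0.000586 with all 14 libraries). MRPL12 itself went the other way without the 2 libraries, 1.33-fold higher (adjusted p = 6.29e-05), and was not called with all 14 libraries (log2 difference -0.16, adjusted p = 0.684). MRPL55, a large-subunit protein, and MRPS33, a mitochondria-specific protein of the small subunit, were 1.43-fold and 1.40-fold lower without the 2 libraries (adjusted p = 0.00209 and 0.000727). MRPL2 and MRPS15 were 1.43-fold and 1.33-fold lower in that fit (adjusted p = 0.00187 and 0.000191). The calls of MRPL1, MRPS25, MRPL48, MRPL10, MRPL2, MRPS15 and MRPS33 with 14 libraries held in each fit that left out 1 library, while those of MRPS11, MRPL50 and MRPL55 did not: MRPS11 was lost without sgHS1-5 2 or 3, MRPL50 without sgHS1-5 1 or 3 and MRPL55 without sgHS1-5 2. Libraries sgHS1-5 2 and 3 held the myeloid marker MPO at up to 1415 CPM, and without both of them MRPL1 and MRPS25 were still called higher and MRPL10 lower, and no other member was called. That fit takes the spread of the 1 sgHS1-5 library left from the other groups. MRPL48 differed by -1.18 on the log2 scale in that fit. The part of these markers in the calls that were lost was not tested. With 14 libraries, the count of lower members was 26 without sgGal4 2 and 29 without sgGal4 3, and the count of higher members was 2 without sgHS1-5 3 and 14 without sgGal4 1.

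**Figure D3:**
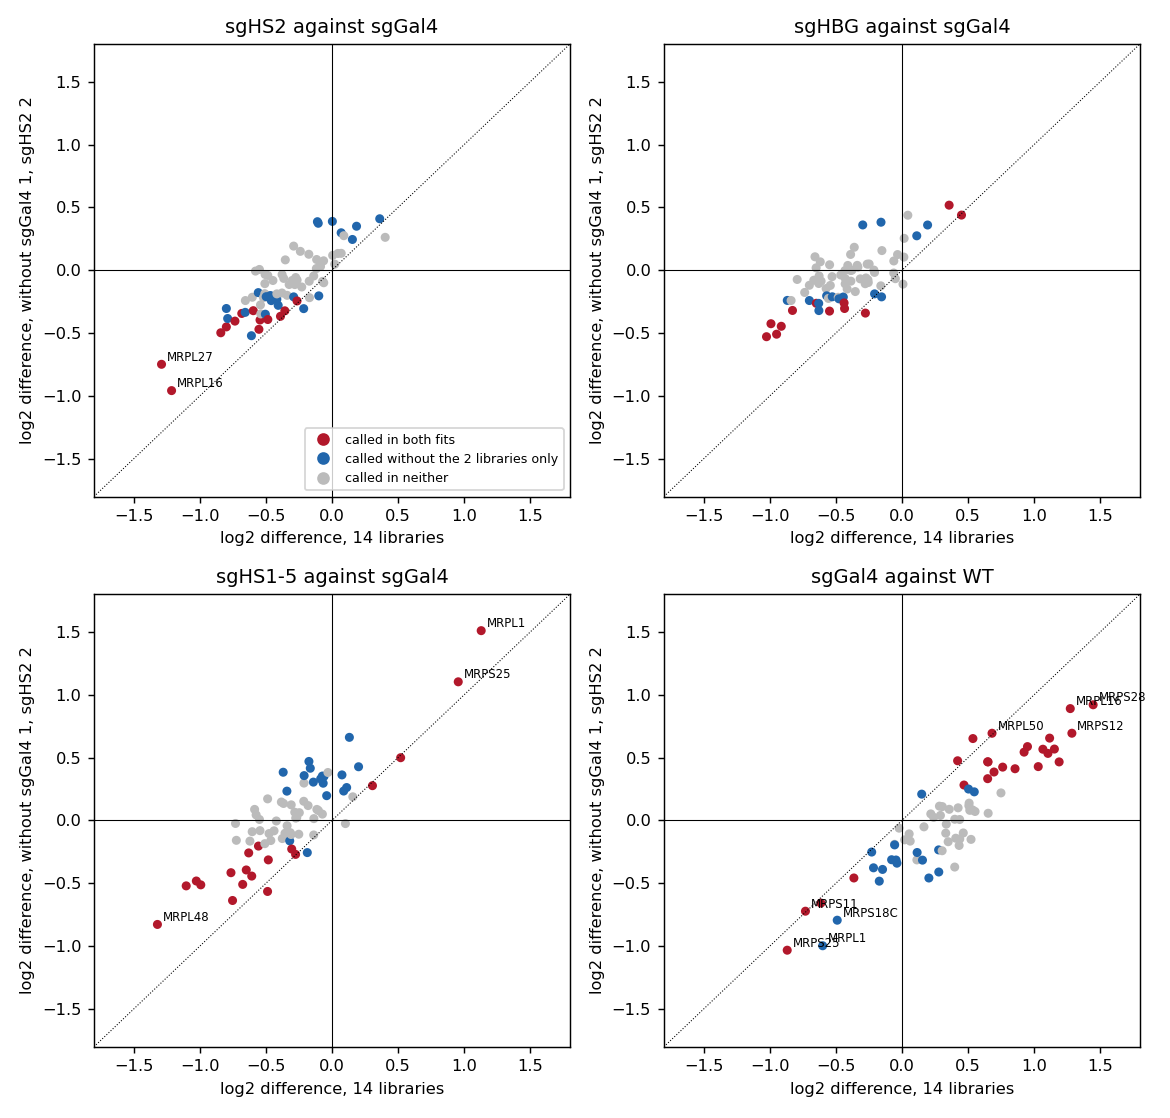
Log2 differences of the 76 tested members in 4 comparisons, with all 14 libraries (x axis) and without sgGal4 1 and sgHS2 2 (y axis); red points were called in both fits, blue points only without the 2 libraries, grey points in neither, and the dotted line marks equal values. In the 3 comparisons against sgGal4 most points lie above the line, with medians of -0.36, -0.42 and -0.31 on the x axis and -0.12, -0.078 and 0.017 on the y axis.

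Over all 7 comparisons, the 113 calls made on members with all 14 libraries were made again, in the same direction, without sgGal4 1 and sgHS2 2, and 147 calls were added. Of the added calls, 27 in sgHBG and 26 in sgHS1-5 against WT lay in comparisons that hold neither library. There the shared estimate of the spread changed, and not the libraries compared. The tilt of the log2 differences with transcript length changed with these libraries. Across the 76 members with an implied length, the Spearman correlation of the sgHBG difference from sgGal4 with length was 0.502 with all 14 libraries, against 0.294 across all tested genes. Without the 2 libraries it was 0.029 in members and 0.034 in all genes. For sgGal4 against WT it was -0.458 in members and -0.127 in all genes with 14 libraries, and -0.218 and 0.053 without the 2. These correlations run across genes, which are not independent replicates, and are given as descriptions.

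**Figure D4:**
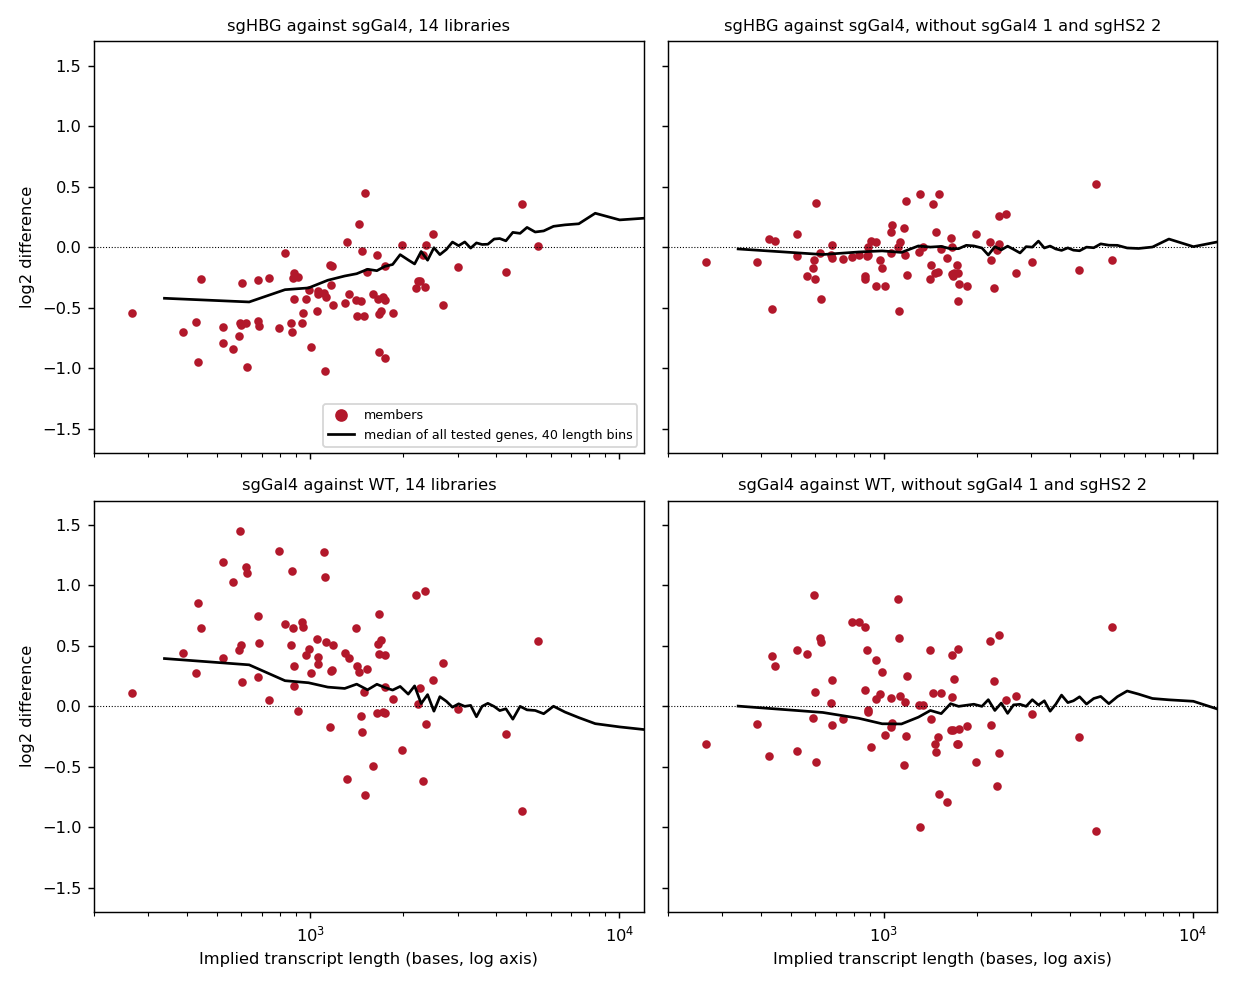
Log2 difference against implied transcript length (log axis) for sgHBG against sgGal4 and sgGal4 against WT, with all 14 libraries (left) and without sgGal4 1 and sgHS2 2 (right); red points are members and the black line is the median of all tested genes in 40 bins of length. On the upper left the line climbs with length and the members follow it (correlation 0.502), and on the upper right both are flat (0.029).

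The comparison of sgGal4 with WT asks what dCas9, BirA and a non-targeting sgRNA change by themselves, together with whatever else separates the 2 populations. Members moved in both directions, and without sgGal4 1 and sgHS2 2 their shares lay near those of all genes. In the fit without sgGal4 1 and sgHS2 2, 24 of 76 members were higher and 19 lower in sgGal4 (median log2 difference 0.018), against 29.9% and 27.3% of all genes. In the fit to all 14 libraries, 21 were higher and 4 lower (median 0.40), against 22.7% and 19.6%. MRPS28, a small-subunit protein, had 17.7 and 15.2 CPM in sgGal4 2 and 3 and 39.3 CPM in sgGal4 1, against 9.62 and 7.83 CPM in the 2 WT libraries. MRPL16 had 113 and 109.7 CPM in sgGal4 2 and 3 and 215 CPM in sgGal4 1, against 59.6 and 61.1 CPM in the 2 WT libraries. For both genes all sgGal4 libraries lay above WT. MRPS28 was 1.89-fold higher (log2 difference 0.92, SE 0.16, adjusted p = 0.00043 without sgGal4 1 and sgHS2 2, and 1.45, SE 0.33, adjusted p = 0.00392 with all 14 libraries). MRPL16 was 1.85-fold higher (log2 difference 0.89, SE 0.087, adjusted p = 4.56e-06 without sgGal4 1 and sgHS2 2, and 1.27, SE 0.25, adjusted p = 0.00128 with all 14 libraries).

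MRPS12, which lies at the decoding site, had 45.2 and 40.5 CPM in sgGal4 2 and 3 and 109.7 CPM in sgGal4 1, against 26.6 and 26.5 CPM in the 2 WT libraries. The groups did not overlap, and sgGal4 1 was far above sgGal4 2 and 3. MRPS12 was 1.62-fold higher without sgGal4 1 and sgHS2 2 (log2 difference 0.69, SE 0.099, adjusted p = 9.48e-05) and 2.44-fold higher with all 14 libraries (log2 difference 1.29, SE 0.35, adjusted p = 0.00951). MRPL24 and MRPS6 were 1.57-fold and 1.48-fold higher and MRPL51 1.38-fold higher without the 2 libraries (adjusted p = 6.29e-05, 0.000246 and 0.000116). Their differences with all 14 libraries were 1.12, 1.15 and 1.19 on the log2 scale. The lower members called by both fits were MRPS25, MRPS11, MRPL42 and MRPS10. MRPS25 had 62.8 and 57.1 CPM in sgGal4 2 and 3 and 82.6 CPM in sgGal4 1, against 122 and 123 CPM in the 2 WT libraries. MRPS25 was 2.04-fold lower without sgGal4 1 and sgHS2 2 (log2 difference -1.03, SE 0.067, adjusted p = 1.83e-07) and 1.82-fold lower with all 14 libraries (log2 difference -0.87, SE 0.13, adjusted p = 0.000193). MRPL42, a mitochondria-specific large-subunit protein, had 52.7 and 46.9 CPM in sgGal4 2 and 3 and 54.9 CPM in sgGal4 1, against 75.3 and 82.1 CPM in the 2 WT libraries. MRPL42 was 1.58-fold lower without sgGal4 1 and sgHS2 2 (log2 difference -0.66, SE 0.11, adjusted p = 0.000239) and 1.53-fold lower with all 14 libraries (log2 difference -0.61, SE 0.12, adjusted p = 0.00119). MRPS11 was 1.65-fold lower and MRPS10 1.37-fold lower without the 2 libraries (adjusted p = 0.00171 and 7.47e-05). With 14 libraries, the count of higher members was 9 without WT 1 and 4 without WT 2, and the count of lower members was 18 without sgGal4 1. The calls of MRPS28, MRPL16, MRPS25, MRPS11 and MRPL42 held with each library left out in turn, those of MRPS12, MRPS6 and MRPL51 were lost without either WT library, that of MRPL24 without WT 2, and that of MRPS10 without sgGal4 3 or either WT library.

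Each targeting group was also set against WT. In the fit without sgGal4 1 and sgHS2 2, 12 members were higher and 25 lower in sgHS2 (26.5% and 25.9% of all genes), 16 and 24 in sgHBG (28.3% and 27.2%), and 22 and 21 in sgHS1-5 (32.6% and 29.8%). With all 14 libraries the counts were 6 higher and 8 lower in sgHS2 (17.6% and 15.5% of all genes), 4 and 9 in sgHBG (17.7% and 15.9%), and 9 and 8 in sgHS1-5 (23.4% and 19.5%). Neither left-out library is in sgHBG, sgHS1-5 or WT, but all groups share 1 estimate of the spread. Their log2 differences hardly moved while the SE fell. MRPL1 in sgHBG went from -0.55 (SE 0.27) with 14 libraries to -0.56 (SE 0.17), and MRPL48 in sgHS1-5 from -1.04 (SE 0.29) to -1.06 (SE 0.076). These comparisons share the 2 WT libraries with each other and with sgGal4 against WT, so a WT library enters all of them: without WT 2, the higher members with 14 libraries were 1, 1 and 2, and without WT 1 they were 2, 2 and 4, in the same order of groups. The lower members were 3, 2 and 5 without WT 2 and 3, 3 and 4 without WT 1. Without sgHS1-5 2 and 3, 3 members were higher and 4 lower in sgHS1-5. Leaving out sgHS2 2 gave 3 higher members in sgHS2, leaving out sgHS2 1 or 3 gave 3 or 4 lower ones, and leaving out sgHBG 2 or 3 gave 4 or 5 lower ones in sgHBG.

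Read by gene, MRPL50 had 23.1 and 21.3 CPM in sgHS2 1 and 3 and 23.1 CPM in sgHS2 2, 26.2, 23.6 and 23.5 CPM in the 3 sgHBG libraries and 32.7, 28.8 and 32.3 CPM in the 3 sgHS1-5 libraries, against 15.4 and 16.1 CPM in the 2 WT libraries. All 9 libraries of the targeting groups lay above WT. Its log2 difference from WT without the 2 libraries was 0.48 in sgHS2 (adjusted p = 0.00151), 0.63 in sgHBG (adjusted p = 0.000101) and 0.97 in sgHS1-5 (adjusted p = 2.76e-06). MRPL16 had 55.8 and 60.8 CPM in sgHS2 1 and 3 and 72.3 CPM in sgHS2 2, against 59.6 and 61.1 CPM in WT. Its level in sgHS2 1 and 3 was close to that of WT on either side, with a log2 difference of -0.067 (adjusted p = 0.562), while sgHBG and sgHS1-5 were 1.85-fold and 2.06-fold above WT (adjusted p = 2.82e-06 and 6.68e-07).

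MRPS6 and MRPL17 were the members furthest above WT in sgHS2. MRPL17, a protein at the exit of the nascent-chain tunnel, had 49.0 and 46.2 CPM in sgHS2 1 and 3 and 59.7 CPM in sgHS2 2, against 25.7 and 25.2 CPM in the 2 WT libraries. The log2 difference was 0.89 (adjusted p = 6.29e-06), and that of MRPS6 was 0.94 (adjusted p = 5.2e-06). With 14 libraries, the call of MRPL17 was lost without WT 2, and that of MRPS6 without sgHS2 2 or either WT library. In sgHS1-5 MRPS28 stood furthest above WT, with 22.8, 19.5 and 19.3 CPM in the 3 sgHS1-5 libraries, against 9.62 and 7.83 CPM in the 2 WT libraries. Its log2 difference was 1.22 (adjusted p = 2.85e-05), followed by MRPL16, MRPL50 and MRPL24 (log2 difference 0.96, adjusted p = 1.51e-06 for MRPL24). The call of MRPS28 with 14 libraries was lost without WT 2, and that of MRPL24 without either WT library and without sgHS1-5 2 and 3. MRPS12 was called there too (log2 difference 0.93, adjusted p = 5.15e-06), but with 14 libraries its call was lost whichever 1 of the 5 libraries was left out. In sgHBG, MRPS30 (log2 difference 0.47, adjusted p = 0.000102) and MRPL19 (log2 difference 0.54, adjusted p = 0.000874) were called in both fits beside MRPL16 and MRPL50. MRPL19 was called with 14 libraries too, at 0.55 on the log2 scale (adjusted p = 0.0111), and so was MRPS30, at 0.48 (adjusted p = 0.023), although the call of MRPS30 was lost whichever of the 5 libraries was left out, that of MRPL19 without WT 2 and that of MRPL16 in sgHBG without either WT library.

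MRPL1 and MRPS25 were below WT in sgHS2 in both fits (log2 difference -0.85, SE 0.19, adjusted p = 0.00293 without sgGal4 1 and sgHS2 2, and -0.84, SE 0.27, adjusted p = 0.0319 with all 14 libraries for MRPL1, and log2 difference -0.68, SE 0.065, adjusted p = 5.47e-06 without sgGal4 1 and sgHS2 2, and -0.68, SE 0.13, adjusted p = 0.0015 with all 14 libraries for MRPS25). The call of MRPL1 with 14 libraries was lost whichever 1 of the 5 libraries was left out, and that of MRPS25 held in each case. In sgHBG MRPS25 was below WT in both fits (log2 difference -0.51, SE 0.059, adjusted p = 1.8e-05 without sgGal4 1 and sgHS2 2, and -0.51, SE 0.13, adjusted p = 0.00901 with all 14 libraries), lost with 14 libraries without either WT library, and MRPL1 without the 2 libraries only (log2 difference -0.56, SE 0.17, adjusted p = 0.0149 without sgGal4 1 and sgHS2 2, and -0.55, SE 0.27, adjusted p = 0.137 with all 14 libraries).

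The members below WT also included MRPL42, with 37.3 and 41.1 CPM in sgHS2 1 and 3 and 39.5 CPM in sgHS2 2, 48.6, 51.8 and 47.4 CPM in the 3 sgHBG libraries and 50.2, 64.6 and 57.3 CPM in the 3 sgHS1-5 libraries, against 75.3 and 82.1 CPM in the 2 WT libraries. None of these libraries reached WT, and the sgHS2 libraries were the lowest. The log2 difference was -1.02 in sgHS2 (adjusted p = 1.15e-05), -0.68 in sgHBG (adjusted p = 9.08e-05) and -0.47 in sgHS1-5 (adjusted p = 0.00139). MRPS18C had 28.4 and 33.4 CPM in sgHS2 1 and 3 and 39.0 CPM in sgHS2 2, 33.0, 30.5 and 30.2 CPM in the 3 sgHBG libraries and 31.6, 39.7 and 30.4 CPM in the 3 sgHS1-5 libraries, against 56.3 and 58.3 CPM in the 2 WT libraries. The sgGal4 libraries had 32.8 and 33.1 CPM in sgGal4 2 and 3 and 57.2 CPM in sgGal4 1, which was within the WT range. MRPL45, which tethers the ribosome to the inner membrane, had 51.2 and 52.2 CPM in sgHS2 1 and 3 and 63.5 CPM in sgHS2 2 and 50.9, 55.3 and 49.1 CPM in the 3 sgHS1-5 libraries, against 84.9 and 82.4 CPM in the 2 WT libraries. Its log2 difference was -0.71 in sgHS2 (adjusted p = 2.35e-05) and -0.71 in sgHS1-5 (adjusted p = 9.18e-06). The calls of MRPL42 with 14 libraries held with each library left out in sgHS2 and sgHBG, while those of MRPS18C were lost without WT 2 in all 3 groups. With 1 library left out, the MRPS18C call was also lost without sgHS2 1 or WT 1 in sgHS2, and without sgHS1-5 3 or WT 1 in sgHS1-5. MRPL45 was lost without WT 1 in both groups, without WT 2, sgHS2 1 or sgHS2 3 in sgHS2, and without sgHS1-5 2 and 3 in sgHS1-5. MRPL48 and MRPL10 were the lowest members in sgHS1-5 against WT (log2 difference -1.06, adjusted p = 3.26e-07 for MRPL48 and log2 difference -0.83, adjusted p = 1.51e-06 for MRPL10). The call of MRPL48 with 14 libraries was lost without WT 1 and without sgHS1-5 2 and 3, while that of MRPL10 held with each library left out and without those 2.

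Over the 12 libraries with dCas9, every library lay above both WT libraries for 11 of 76 members, or 14.5%, and below both for 3 members, or 3.95%, with sgGal4 1 and sgHS2 2 included. Among all 14406 genes tested, the shares were 14.9% and 14.3%. The 11 members were MRPL3, MRPL17, MRPL19, MRPL24, MRPL36, MRPL50, MRPL51, MRPS6, MRPS12, MRPS14 and MRPS28, and the 3 were MRPL30, MRPL42 and MRPS10.

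**Figure D5:**
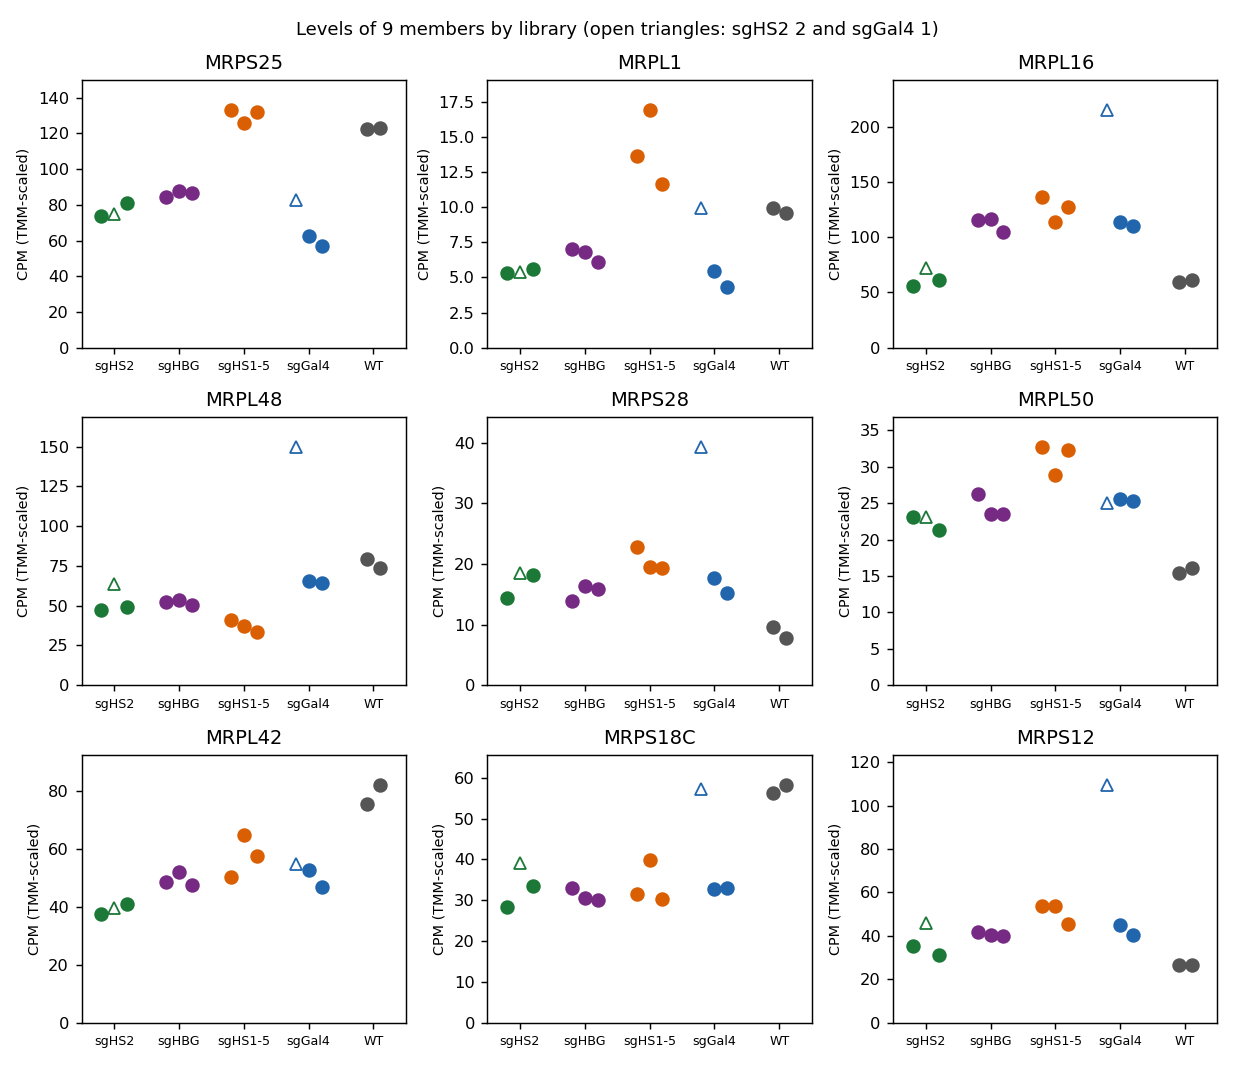
TMM-scaled CPM of 9 members in every library, by group; open triangles are sgHS2 2 and sgGal4 1. MRPS25 and MRPL1 are low in sgHS2, sgHBG and sgGal4 2 and 3 and high in sgHS1-5 and WT, MRPL16 is low in sgHS2 and WT, MRPL48 is low in sgHS1-5, MRPS28 and MRPL50 are lowest in WT, and MRPL42 is highest in WT.

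Leaving sgGal4 1 and sgHS2 2 aside, the ratio of the highest to the lowest group mean in CPM was 2.89 for MRPL1, 2.36 for MRPS28, 2.18 for MRPS25, 2.16 for MRPL16, 2.06 for MRPL48 and 2.01 for MRPL42. At the other end, MRPL34 had a ratio of 1.06, MRPL43 of 1.08, MRPL47 of 1.11 and MRPS22 of 1.12. MRPL34 averaged 40.1 CPM in sgHS2, 40.5 in sgHBG, 39.4 in sgHS1-5, 42.0 in sgGal4 and 41.3 in WT.

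Further members were chosen for their roles. MRPL3, a protein of the catalytic region, was above WT in sgGal4 (log2 difference 0.48, SE 0.070, adjusted p = 0.000124 without sgGal4 1 and sgHS2 2, and 0.42, SE 0.10, adjusted p = 0.00493 with all 14 libraries), and its call with 14 libraries was lost without WT 2, with the length offset and in the 3 tests on RPKM. MRPL11, at the base of the factor-binding stalk, had 39.6 and 40.5 CPM in sgHS2 1 and 3 and 50.6 CPM in sgHS2 2, against 51.8 and 45.8 CPM in sgGal4 2 and 3 and 131 CPM in sgGal4 1, and was lower without the 2 libraries only (log2 difference -0.30, SE 0.096, adjusted p = 0.0243 without sgGal4 1 and sgHS2 2, and -0.80, SE 0.30, adjusted p = 0.0637 with all 14 libraries). With all 14 libraries the groups overlapped. MRPL44, which carries a domain related to RNase III, was higher in sgGal4 than in WT (log2 difference 0.42, SE 0.17, adjusted p = 0.0457 without sgGal4 1 and sgHS2 2, and 0.76, SE 0.26, adjusted p = 0.0301 with all 14 libraries), and its call with 14 libraries was lost without sgGal4 1 or either WT library. MRPL41 was called in neither fit of any comparison against sgGal4, with log2 differences without the 2 libraries of -0.21 in sgHS2, -0.12 in sgHBG and -0.16 in sgHS1-5. The 3 MRPS18 genes are relatives whose products occupy different places in the ribosome. Their log2 differences of sgGal4 from WT without the 2 libraries were -0.79 for MRPS18C (adjusted p = 0.000106), -0.48 for MRPS18A (adjusted p = 7.69e-05), which shares exon bases with RSPH9, and -0.25 for MRPS18B (adjusted p = 0.0053). None of the 3 was called with all 14 libraries, at -0.49, -0.17 and 0.12. Of the members known from mitochondrial disease, MRPS34 was lower in sgHS2 (log2 difference -0.35, adjusted p = 0.00146) and sgHBG (log2 difference -0.26, adjusted p = 0.00545) than in sgGal4 without the 2 libraries, and MRPS2 was higher in sgHS1-5 (log2 difference 0.23, adjusted p = 0.0168). MRPS16 was lower in sgHS1-5 (log2 difference -0.16, adjusted p = 0.0427), and MRPS22 was called in none of the 3 (-0.18 in sgHS2, -0.068 in sgHBG and -0.14 in sgHS1-5). None of these 4 genes was called against sgGal4 with all 14 libraries.

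Genes that work with the mitochondrial ribosome were counted in the same fits. Without sgGal4 1 and sgHS2 2, of 17 tested assembly factors, 9 were lower and 3 higher in sgHS2 than in sgGal4, 5 and 1 in sgHBG, and 4 and 4 in sgHS1-5. Among all genes in that fit, 23.0% were lower and 19.0% higher in sgHS2, 19.6% and 17.8% in sgHBG, and 27.0% and 25.7% in sgHS1-5. These shares apply to every pathway count against sgGal4 from that fit that follows. For the assembly factors the shares were 52.9% and 17.6% in sgHS2, 29.4% and 5.88% in sgHBG, and 23.5% and 23.5% in sgHS1-5, the last near those of all genes. In the fit to all 14 libraries, 6 were lower and 1 higher in sgHS2, where 15.6% of all genes were lower and 14.5% higher. TRUB2, a pseudouridine synthase of mitochondrial RNA, had 51.4 and 53.8 CPM in sgHS2 1 and 3 and 62.1 CPM in sgHS2 2, against 85.1 and 78.8 CPM in sgGal4 2 and 3 and 101 CPM in sgGal4 1. The log2 difference of TRUB2 was -0.66 without the 2 libraries (adjusted p = 0.000239) and -0.66 with them (adjusted p = 0.00153). Without the 2 libraries, TRUB2 was above WT both in sgGal4 (log2 difference 0.97, adjusted p = 6.73e-06) and in sgHS2 (log2 difference 0.31, adjusted p = 0.0244). TFB1M, which methylates the small ribosomal RNA, was lower in sgHS2 (log2 difference -0.66, adjusted p = 0.00152), and MTG1, a GTPase of large-subunit assembly, was higher in sgHS1-5 (log2 difference 1.22, adjusted p = 0.000188). Of 16 translation factors, 4 were lower and 1 higher in sgHS2, 2 and 1 in sgHBG, and 2 and 3 in sgHS1-5, among them the elongation factor TSFM, lower in sgHS2 (log2 difference -0.30, adjusted p = 0.00911), and the recycling factor MRRF, higher in sgHS1-5 (log2 difference 0.40, adjusted p = 0.0035). Of 17 mitochondrial aminoacyl-tRNA synthetases, 8 were lower and 2 higher in sgHS2, 4 and 1 in sgHBG, and 6 and 4 in sgHS1-5. CARS2 was higher in sgHS1-5 (log2 difference 1.24, adjusted p = 0.000111) and TARS2 lower (log2 difference -0.66, adjusted p = 0.000111). Against WT, 9 synthetases (52.9%) were higher and 1 (5.88%) lower in sgGal4, where 29.9% of all genes were higher and 27.3% lower.

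Of 12 genes of mitochondrial transcription and its nuclear regulators, 4 were lower and 2 higher in sgHS2 than in sgGal4, 3 and 2 in sgHBG, and 3 and 4 in sgHS1-5. POLRMT, the mitochondrial RNA polymerase, was lower in sgHS2 (log2 difference -0.64, adjusted p = 0.000229), and TFAM, the factor that packages mitochondrial DNA, was higher in sgHS1-5 (log2 difference 0.31, adjusted p = 0.00116). TFB2M, which opens the mitochondrial promoter, was higher in sgGal4 than in WT (log2 difference 1.16, adjusted p = 5.07e-07). So were POLRMT (log2 difference 0.39, adjusted p = 0.0034) and the translation factor TSFM (log2 difference 0.44, adjusted p = 0.000543), so a high level in sgGal4 enters their differences from sgGal4. Of 6 mitoribosomal proteins with other names, DAP3, a small-subunit GTP-binding protein, was lower in sgHS2 (log2 difference -0.58, adjusted p = 4.77e-05), sgHBG (log2 difference -0.26, adjusted p = 0.00602) and sgHS1-5 (log2 difference -0.47, adjusted p = 7.21e-05), and PTCD3 was higher in sgHS1-5 (log2 difference 0.34, adjusted p = 0.00013). DAP3 was above WT in sgGal4 (log2 difference 0.56, adjusted p = 2.52e-05) and in sgHBG (log2 difference 0.30, adjusted p = 0.00155). In sgHS2 DAP3 was not called against WT (log2 difference -0.016, adjusted p = 0.867). These pathway values come from the fit without the 2 libraries, except where 14 are named.

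Beside the members stand the cytosolic ribosomal proteins and the nuclear-encoded respiratory chain. Of 80 tested cytosolic ribosomal protein genes, 62 were lower and 7 higher in sgHS2 than in sgGal4 without the 2 libraries (median log2 difference -0.38), 61 and 7 in sgHBG (-0.31) and 65 and 4 in sgHS1-5 (-0.41). The member medians in the same comparisons were -0.12, -0.078 and 0.017. Against WT, 64 cytosolic genes were higher and 8 lower in sgGal4 (median 0.42), where the members had 24 higher and 19 lower (0.018) and 29.9% of all genes were higher and 27.3% lower. Of 79 respiratory chain genes, 29 were lower and 14 higher in sgHS2 (median -0.072), 18 and 11 in sgHBG (-0.086) and 22 and 15 in sgHS1-5 (-0.029), and against WT 26 were lower and 21 higher in sgGal4 (-0.055). The lower and higher respiratory chain genes were 36.7% and 17.7% of those tested in sgHS2, against 23.0% and 19.0% of all genes, 22.8% and 13.9% in sgHBG, against 19.6% and 17.8%, and 27.8% and 19.0% in sgHS1-5, against 27.0% and 25.7%. In sgGal4 against WT they were 32.9% and 26.6%, against 27.3% and 29.9% of all genes. In the fit to 14 libraries the cytosolic medians were -0.69, -0.79 and -0.90 against sgGal4 and 0.91 for sgGal4 against WT, and the respiratory chain medians were -0.39, -0.55, -0.41 and 0.43. The difference between these lists and the members was not tested.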

How the data were processed

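RNA of K562 cells, 14 libraries in 5 groups, was prepared with the TruSeq RNA v2 kit and sequenced on a NextSeq500, per the labels' protocols. The authors deposited 1 table of read counts per gene, with no normalization, and 1 table of RPKM values. TopHat, Cufflinks, DESeq and the hg19 build are named in the submitters' processing notes; versions, annotation, counting tool and strand setting are not given in the sources used here. Groups were taken from the sample titles. Counts were tested with edgeR 4.0.16 in R 4.3.3 (quasi-likelihood F test, TMM factors, genes kept at a minimum count of 10 and a total of 15, all 14 libraries in 1 fit with 9 residual degrees of freedom), with Benjamini-Hochberg adjustment over all genes tested. The same fit without sgGal4 1 and sgHS2 2 is given beside it. Alternatives were RLE factors, no filter, DESeq2 1.42.0, a replicate block, a length offset, limma 3.58.1 on log2(RPKM + 1) or log2(RPKM + 0.1) with a mean of at least 0.5 RPKM or no filter, and each library left out. The scripts were tested on simulated data. Depth was 5694448 to 11335831 reads per library, which sets the precision of weakly expressed members such as MRPL1.

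Named members are, in each comparison, up to 6 with the highest and 6 with the lowest log2 difference among called members with a mean of at least 1 CPM, the 6 highest and 6 lowest by RPKM, and a set chosen for its roles. MRPL46, the members of short counts and the steadiest members were named after their values were seen, and so were the pathway genes. The members and the gene lists were chosen with earlier results of these data known. Positions, overlaps and neighbours came from GENCODE 29 and promoters from RefSeq, both on GRCh38 and not the build of the files, so they serve only for names, neighbours and sequence. Transcript length was the ratio of counts to RPKM. Replicates 1 to 3 were not treated as paired: of 26 pairs of libraries with the same number, 2 had a correlation of deviations over 0.1. That check cannot exclude a batch shared by number. No columns were identical and no library was counted as a duplicate.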

Additional observations from a re-analysis of the deposited data

How the results depend on the processing

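The fits to all 14 libraries were recomputed under each alternative. Of 1302 values of named members, 1168 kept their call or their lack of one, 64 lost the call, 66 gained one and 4 turned round. When 1 library at a time was left out, 702 of 883 were kept in this sense, 146 lost the call, 33 gained one and 2 turned round. A turn was counted only where a fit called the member, so uncalled values that changed sign are among those kept. MRPL12 in sgHBG against sgGal4, for example, went from -0.547 to 0.0438 without sgGal4 1 and sgHS2 2, called in neither fit. Without sgGal4 1 and sgHS2 2, the members called higher and lower were 7 and 27 in sgHS2 against sgGal4, 6 and 20 in sgHBG against sgGal4, and 20 higher in sgHS1-5 against sgGal4, with 19 lower in sgGal4 against WT. Against WT they were 12 and 25 in sgHS2, 16 and 24 in sgHBG, and 22 and 21 in sgHS1-5. With the length trend as an offset, 3 and 24 members were higher and lower in sgHS2 against sgGal4, 18 lower in sgHBG against sgGal4, 10 higher in sgHS1-5 against sgGal4, 9 lower in sgGal4 against WT, 12 and 13 higher and lower in sgHS2 against WT, 15 higher in sgHBG against WT, and 24 and 13 in sgHS1-5 against WT. DESeq2 called 21 lower in sgHBG against sgGal4. The RPKM test with no filter called 8 lower in sgHS2 against sgGal4, 1 higher in sgHBG against sgGal4 and 13 higher in sgGal4 against WT. Over all genes, those lower in sgHS2 against sgGal4 also rose, from 15.6% with 14 libraries to 23.0% without sgGal4 1 and sgHS2 2. Shares of all genes under the other settings are not given beside the counts of this section. The counts alone do not tell a change in members from a change in all genes. Without sgHS1-5 2 and 3, 2 members were higher and 1 lower in sgHS1-5 against sgGal4, and 3 and 4 against WT.

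Same-numbered libraries did not deviate together as a rule (r from -0.6 to 0.423 over 26 pairs), and 4 of 14 libraries correlated best with their own number. Deviations balance out within a group, and sgHS2 2 and sgGal4 1, with different numbers, correlated at 0.683. The check therefore cannot exclude a batch shared by number. With the replicate block, 8 members were lower in sgHS2 against sgGal4, 1 was higher in sgHBG against sgGal4 and 4 were lower in sgHS2 against WT.

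Leaving out 1 library at a time, members called higher and lower ranged over 0 to 8 and 3 to 27 in sgHS2 against sgGal4, 0 to 4 and 0 to 32 in sgHBG against sgGal4, 2 to 14 and 10 to 29 in sgHS1-5 against sgGal4, and 4 to 29 and 3 to 18 in sgGal4 against WT. Against WT the ranges were 1 to 5 and 3 to 6 in sgHS2, 1 to 3 and 2 to 6 in sgHBG, and 2 to 7 and 4 to 8 in sgHS1-5. The values counted as turned round did so without sgGal4 1 and sgHS2 2 or without sgGal4 1 alone. MRPL12 in sgHS1-5 against sgGal4 was 0.42 on the log2 scale without both and ranged over -0.41 to 0.44 with 1 library left out. MRPS12 in sgHS1-5 against sgGal4 was 0.23, and MRPS34 in sgHS2 against WT was -0.21, without both. MRPS18B in sgGal4 against WT was -0.25 without both and ranged over -0.26 to 0.28 with 1 library left out. The cause of these changes was not tested.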
